A study of Mus musculus with 12 samples.

Results

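Wild type (WT) donor T cells were compared before allogeneic transplant and at day 7 after it. The comparison used 6 of the 12 libraries of the series, namely every library labelled wild type and either Pre transplanted (WT Pre, n = 3) or Post transplanted Day 7 (WT Post, n = 3). The labels give both groups as CD4 T cells of the spleen, with no allele deleted. WT Pre cells came from the spleens of young adult donor mice on the C57BL/6 background. WT Post cells descended from CD3 T cells of such donors, injected with T cell-depleted WT bone marrow into irradiated female BALB/c mice and sorted back at day 7 by the donor MHC molecule H2Kb. The other 6 libraries, from TCF-1 cKO mice, entered only an alternative fit. RNA was total RNA, amplified from small inputs before library preparation, and the values are kallisto estimated counts summed per gene. The deposited design text gives different mice for the Pre libraries. The number of recipients behind each Post library was not stated in the sources used here, so p-values measure only the spread between these libraries. WT Pre and WT Post cells differ in host, day and cell state together, and these cannot be told apart.

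A donor T cell that meets a mismatched MHC molecule is driven into alloactivation, the response behind graft-versus-host disease. A resting CD4 T cell divides rarely, recirculates through lymph nodes by CCR7, and depends on IL-7. On activation it takes up the growth program of a dividing blast, produces cytokines, moves its homing receptors towards inflamed tissue and displays costimulatory and inhibitory receptors. A spleen also holds many B cells, which carry their own CD79 receptor, immunoglobulin and MHC class II, and share several quiescence genes with resting T cells.

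The labels were first checked against marker genes. Total estimated counts ranged from 17103415 to 19691807 in WT Pre and from 27109156 to 49486745 in WT Post. The labels and the deposited design disagree about the sort: the design text names CD8 cells for the Pre sort, and the methods name CD8 cells for the Post sort. The ratio of Cd8a to Cd4, both in TPM, kallisto's length-scaled level, was 2.53, 1.5003 and 2.69 in the 3 WT Pre libraries and 0.00487, 0.00646 and 0.000931 in the WT Post libraries. WT Post therefore held almost no Cd8a beside Cd4, whereas each library labelled WT CD4 T cell Pre-transplant held more Cd8a than Cd4. The TPM ratio of Cd79a, a chain of the B cell receptor, to Cd3e was 8.94, 9.95 and 7.65 in WT Pre and 0.00195, 0.00462 and 0.00207 in WT Post. In an exact two-sided permutation test each ratio gave p = 0.1, the smallest that 3 against 3 libraries allow. The WT Pre libraries thus went against their label, and every fall below is read with that in mind.

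B cell content separated the groups more than any other marker list. The summed CPM (counts scaled to the library total) of 22 B cell markers ranged from 33498.5 to 37209 in WT Pre and from 719 to 893 in WT Post. Together with immunoglobulin constant and MHC class II genes, 43 genes took 7.66%, 8.13% and 8.44% of all counts in WT Pre and 0.249%, 0.259% and 0.268% in WT Post. Erythroid markers summed to between 10942 and 26260.2 CPM in WT Pre and between 714 and 1488 CPM in WT Post. The 4 CD3 chain genes moved the other way, from 887 to 973 CPM in WT Pre to 2630 to 3237 CPM in WT Post. The plot of summed marker levels shows this exchange library by library. In bulk RNA, fewer cells of a type and less RNA per cell cannot be told apart.

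**Figure D1:**
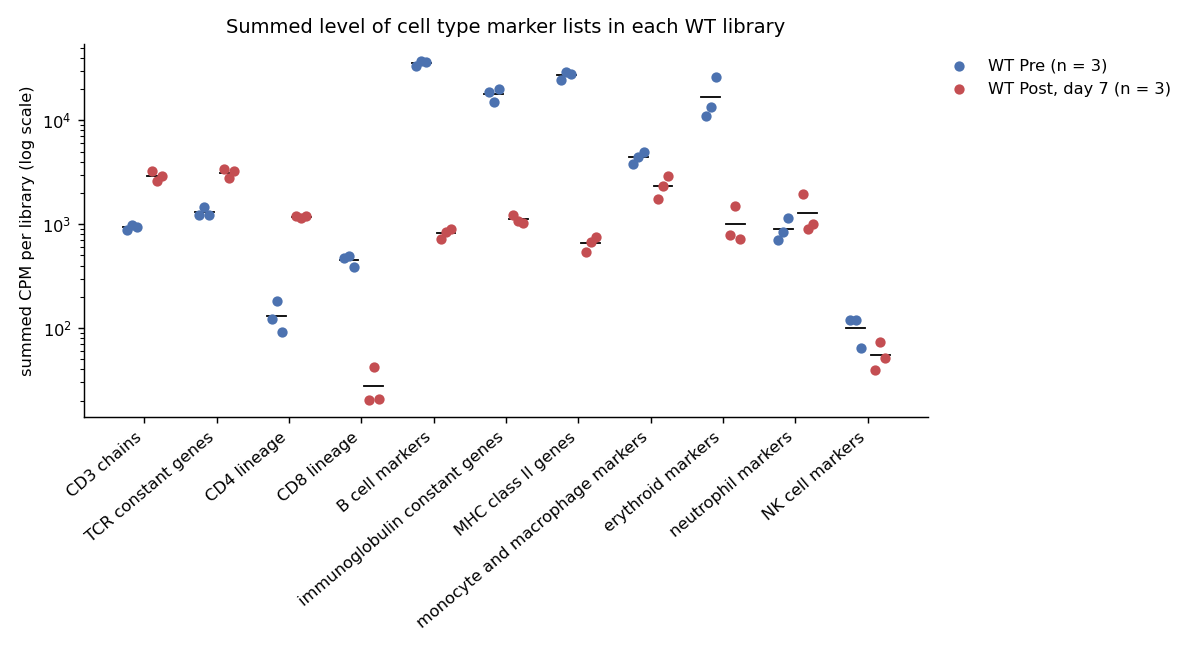
Summed CPM (log axis) of each marker list, with 1 point per library (3 WT Pre in blue, 3 WT Post in red) and a bar at the group mean. B cell markers sit between 33498.5 and 37209 CPM in WT Pre and between 719 and 893 CPM in WT Post, while the CD3 chains are higher in every WT Post library.

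Each change was therefore measured on a pair of scales. On the library scale, counts were normalized to the whole library by TMM, and levels are given as normalized CPM. On the CD3 scale, counts were set against the summed count of Cd3d, Cd3e and Cd3g, that is, per CD3 count. Any count that B cells or other cells without CD3 add to a WT Pre library raises that gene's WT Pre level per CD3 count and can only lower its fold change there. A rise per CD3 count therefore cannot come from B cells in the Pre libraries, whereas a fall on either scale can. The CD3 scale has its own limits: it counts CD8 together with CD4 T cells in WT Pre, and CD3 RNA per cell was not measured. The shift between the scales was 1.61 log2 units, or 3.06-fold.

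Of 18033 genes tested, 2275 (12.6%) were higher in WT Post and 1512 (8.38%) lower on the library scale, with a call set at an adjusted p below 0.05 (edgeR quasi-likelihood test) together with a fold limit of 1 log2 unit in either direction. The levels of the groups did not overlap, with WT Post higher, for 24.2% of genes, and with WT Post lower for 19% of genes. Higher genes made up 60.07% of the calls by TMM, but 35.18% by upper-quartile scaling, 49.14% by DESeq2 and 73.69% on log2(TPM + 1). Per CD3 count, 244 genes (1.35%) were higher and 9460 (52.5%) lower. All 244 were also called higher on the library scale, which leaves 2031 genes higher on the library scale alone. Scaling to the T cell receptor constant genes gave 375 higher genes, and scaling to Thy1, Cd2, Cd5, Cd6 and Lck gave 471, and both sets held all 244. These scalings moved the median gene by −1.25 and −1.09, less than the −1.61 of CD3, so this overlap is not independent support. The median gene had a log2 fold change of −0.17 on the library scale and −1.77 per CD3 count. Each list median below is to be read against the value of its scale, also where that value is not repeated. The split between the scales is wide because a rise smaller than the shift of 1.61 does not exceed the rise of the CD3 genes themselves.

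**Figure D2:**
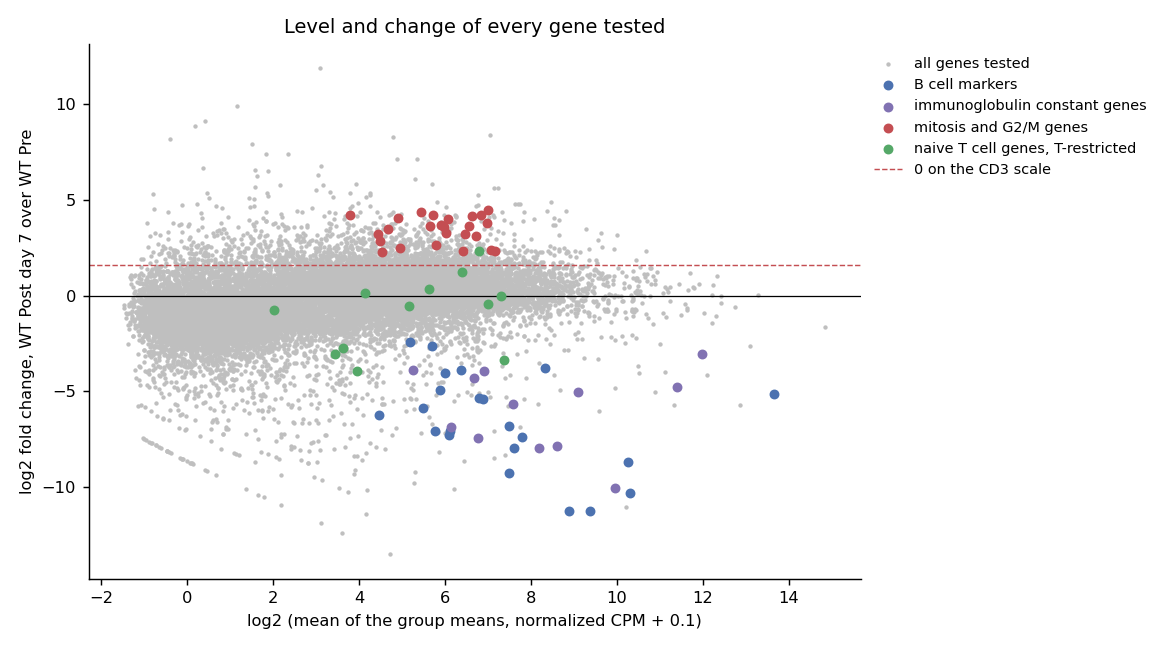
Each point is 1 of 18033 genes tested, with its mean level (log2 of normalized CPM + 0.1) on the horizontal axis and its log2 fold change, WT Post over WT Pre, on the vertical axis. All B cell markers (blue) lie below 0, all mitosis genes (red) lie above the dashed line at 1.61, and the T-restricted naive genes (green) lie on both sides of 0.

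The 8 largest rises, taken among well expressed genes without overlap, were the same on both scales: Ccl1, Ifng, Csf2, Cd70, Gcg, AA467197, Gzmk and Lgals7. The CD3 scale moves all genes by a similar amount, so this agreement in rank is not independent support. Ccl1, a chemokine that binds CCR8, had levels of 1.06, 0.415 and 0.856 normalized CPM in WT Pre and 394, 155 and 241 normalized CPM in WT Post. The log2 fold change was 8.40 ± 0.49 (SE, adjusted p = 6.44e-07), and 6.71 ± 0.46 per CD3 count. Cd70, the ligand of CD27, was at or below 0.306 normalized CPM in every WT Pre library and at 31.4, 10.1 and 9.35 normalized CPM in WT Post, a log2 fold change of 6.78 ± 0.85. WT Post replicate 1 was the highest for both genes, and the groups stood far apart. Gcg, which encodes glucagon, had 0, 0.519 and 0.0611 normalized CPM in WT Pre and 24.2, 7.41 and 16.7 normalized CPM in WT Post. AA467197 had a log2 fold change of 5.86 ± 0.63 and Lgals7, a galectin, one of 5.79 ± 1.02. Lgals7 and Csf2 also had 1 WT Pre library at 0.

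Among the 8 largest falls were Fcmr, Ly6d, Cd79a, Blk, Cd79b, Il4i1 and Mzb1. Most of these are known from B cells: Cd79a and Cd79b are the signaling chains of the B cell receptor, Blk a kinase downstream of it, and Fcmr the receptor for IgM. Cd79a had levels of 2186, 2612 and 2747 normalized CPM in WT Pre and 1.66, 2.67 and 1.52 normalized CPM in WT Post. That is a log2 fold change of −10.35 ± 0.37 (adjusted p = 2.29e-08), beside which Fcmr stood at −11.30 ± 0.68. All 22 B cell markers were called lower (8.38% of all genes were), with a median log2 fold change of −6.54. All 12 immunoglobulin constant genes and all 9 MHC class II genes were lower too, with medians of −5.36 and −5.74. H2-Aa, an MHC class II chain, went from 4303, 5556 and 5256 normalized CPM to 64.8, 99.9 and 119 normalized CPM. Immunoglobulin and T cell receptor genes or segments made up 10.8% of the 1512 lower genes against 1.85% of all genes tested.

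The B cell falls were not of 1 size. Among the 22 markers, the log2 fold change ranged from −11.30 for Fcmr to −2.41 for Btk, a kinase that other blood cells also carry. Ighm, the constant gene of IgM, kept 911, 810 and 830 normalized CPM in WT Post, against 7411, 6844 and 7304 normalized CPM in WT Pre. Its log2 fold change was −3.08 ± 0.22, compared with −7.88 for Ighd, the constant gene of IgD. The Ighm level in WT Post varied little between libraries, while Cd79a was nearly gone from the same libraries. The source of the remaining Ighm was not tested.

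Other cell types changed less evenly. Of 16 monocyte and macrophage markers, 2 were lower (Lyz2 and Cybb) and 3 higher (Mrc1, Vcam1 and Slc40a1). These are 12.5% and 18.8% of the list, near the 8.38% lower and 12.6% higher of all genes. The median log2 fold change was −0.03 on the library scale and 0.03 by DESeq2. Lyz2, the lysozyme of myeloid cells, had levels of 1747, 3036 and 3253 normalized CPM in WT Pre and 322, 147 and 152 normalized CPM in WT Post. Mrc1, the mannose receptor of tissue macrophages, rose by a log2 fold change of 2.77 ± 0.48 and was not called per CD3 count. Among 11 neutrophil markers, 3 were higher (Elane, Ngp and Ltf) and 2 lower, and the summed level ranged from 710 to 1137 CPM in WT Pre and from 901 to 1964 CPM in WT Post. Lower calls only were found for plasma cell (4 of 5), dendritic cell (3 of 7), NK cell (4 of 8), erythroid (6 of 9), platelet (4 of 5) and stromal or endothelial markers (1 of 8). Of all genes, 8.38% were lower, so the share of stromal or endothelial markers (12.5%) is near that of all genes. The part of these cells in other changes was not tested.

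T cell genes rose together on the library scale. All 4 CD3 chain genes and all 3 T cell receptor constant genes were higher, with medians of 1.58 and 1.53, and none of them was called per CD3 count. Cd3e itself had 239, 263 and 341 normalized CPM in WT Pre and 799, 565 and 713 normalized CPM in WT Post. Of 20 pan-T cell surface and signaling genes, 17 were higher (12.6% of all genes were) and none lower, with a median of 1.52. The CD3 scale sets a rise of about this size to 0. Only Gata3, Cd28 and Themis of the 20 were also higher per CD3 count. Gata3, a transcription factor of CD4 and type 2 helper cells, went from 19.7, 29.7 and 27.0 normalized CPM to 368, 323 and 355 normalized CPM. The part of CD8 T cells in the WT Pre level of Gata3 per CD3 count was not tested.

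The coreceptors moved apart. Cd4 had 80.5, 154 and 75.5 normalized CPM in WT Pre and 1177, 1025 and 1208 normalized CPM in WT Post, and the groups did not overlap. Cd4 changed by 3.46 ± 0.31 log2 units (adjusted p = 1.23e-05) and by 1.83 ± 0.28 per CD3 count (adjusted p = 0.00056). Zbtb7b, which encodes the CD4 lineage factor ThPOK, was not called on either scale. Cd8a fell from 149, 170 and 143 normalized CPM to 4.80, 6.54 and 1.08 normalized CPM, a log2 fold change of −5.22 ± 0.54. Cd8b1, the partner chain of CD8, fell as well. CD8 content was seen here only through Cd8a and Cd8b1, so their falls and a loss of CD8 cells cannot be told apart. A change of Cd4 RNA per CD4 cell was not separated from the CD8 content of the WT Pre libraries.

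Mitosis genes rose as a group. All 25 mitosis and G2/M genes were higher on the library scale (12.6% of all genes were), with a median log2 fold change of 3.58, and 17 of 25 were higher per CD3 count (1.35% of all genes were), with a median of 1.94. Mki67, which encodes the proliferation marker Ki-67, had 10.8, 7.73 and 15.0 normalized CPM in WT Pre and 287, 217 and 229 normalized CPM in WT Post. The lowest WT Post library was over 10 times the highest WT Pre library. Mki67 changed by 4.45 ± 0.31 log2 units (adjusted p = 2.11e-06), and by 2.84 ± 0.28 per CD3 count (adjusted p = 3.45e-05). Cdk1, the kinase that starts mitosis, and Top2a, the topoisomerase that untangles sister chromatids, rose by 3.58 ± 0.28 and 3.79 ± 0.25 on the same library scale. The Cdk1 level was 121, 114 and 116 normalized CPM in WT Post, a spread of a few percent.

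The promoters of 3 of these genes are printed because the mitosis genes moved as a block and share known promoter elements. Each window runs from 250 bases before to 50 bases after the gene start in RefSeq (GRCm38.p6), read 5′ to 3′ on the strand of the gene. Mki67 lies at chr7:135716330-135716629, Cdk1 at chr10:69352863-69353162 and Top2a at chr11:99024140-99024439, all on the minus strand. Capitals mark the letters CCAAT, the box bound by NF-Y, and TTTGAA, the core of the cell cycle homology region, on either strand (ATTGG and TTCAAA on the other).
Mki67: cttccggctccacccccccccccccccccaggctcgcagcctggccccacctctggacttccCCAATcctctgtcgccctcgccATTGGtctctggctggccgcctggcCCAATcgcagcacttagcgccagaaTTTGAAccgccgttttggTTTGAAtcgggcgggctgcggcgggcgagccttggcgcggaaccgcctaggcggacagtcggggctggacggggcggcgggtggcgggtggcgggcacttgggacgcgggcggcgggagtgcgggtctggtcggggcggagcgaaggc
Cdk1: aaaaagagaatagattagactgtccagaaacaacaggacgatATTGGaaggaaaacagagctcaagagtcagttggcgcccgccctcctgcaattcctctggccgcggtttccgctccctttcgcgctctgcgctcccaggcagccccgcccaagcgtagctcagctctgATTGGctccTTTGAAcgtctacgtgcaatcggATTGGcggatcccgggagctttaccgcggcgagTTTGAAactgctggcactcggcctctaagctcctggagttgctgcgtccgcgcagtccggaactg
Top2a: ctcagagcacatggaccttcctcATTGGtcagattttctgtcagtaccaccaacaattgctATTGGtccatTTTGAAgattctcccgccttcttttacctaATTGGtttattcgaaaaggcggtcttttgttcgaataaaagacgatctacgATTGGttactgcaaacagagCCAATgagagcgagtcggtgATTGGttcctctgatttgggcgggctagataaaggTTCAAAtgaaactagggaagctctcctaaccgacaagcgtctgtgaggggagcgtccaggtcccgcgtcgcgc

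CCAAT was present in 17 of the 21 mitosis genes that had a window (81%), against 37.9% of all 27025 windows. TTTGAA was present in 15 of 21 (71.4%), against 18.1% of all windows, and both motifs in 14 of 21 (66.7%), against 7.12%. Among the replication genes called higher, 12 of 17 windows held CCAAT (70.6%) and 3 of 17 held TTTGAA (17.6%). A match of letters is a description and was not tested as a binding site.

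Replication and G1/S genes rose with the mitosis genes but by less. On the library scale 21 of 24 were higher (12.6% of all genes were) and none lower, with a median log2 fold change of 2.04. Per CD3 count 4 were higher (Rrm2, Cdc45, Cdc6 and Ccne2) and 2 lower (Cdt1 and E2f1), where 1.35% and 52.5% of all genes were. Their median was 0.39, against −1.77 over all genes. Rrm2, the subunit of ribonucleotide reductase made in S phase, had 14.1, 11.6 and 19.4 normalized CPM in WT Pre and 328, 289 and 301 normalized CPM in WT Post. Mcm5, part of the replicative helicase, had 145, 150 and 221 normalized CPM in WT Pre and 554, 337 and 363 normalized CPM in WT Post. Its log2 fold change was 1.28 ± 0.27 (adjusted p = 0.00473), and it was not called per CD3 count (−0.34 ± 0.19, adjusted p = 0.141). Rrm2 exceeded the rise of CD3 in every library and Mcm5 did not.

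**Figure D3:**
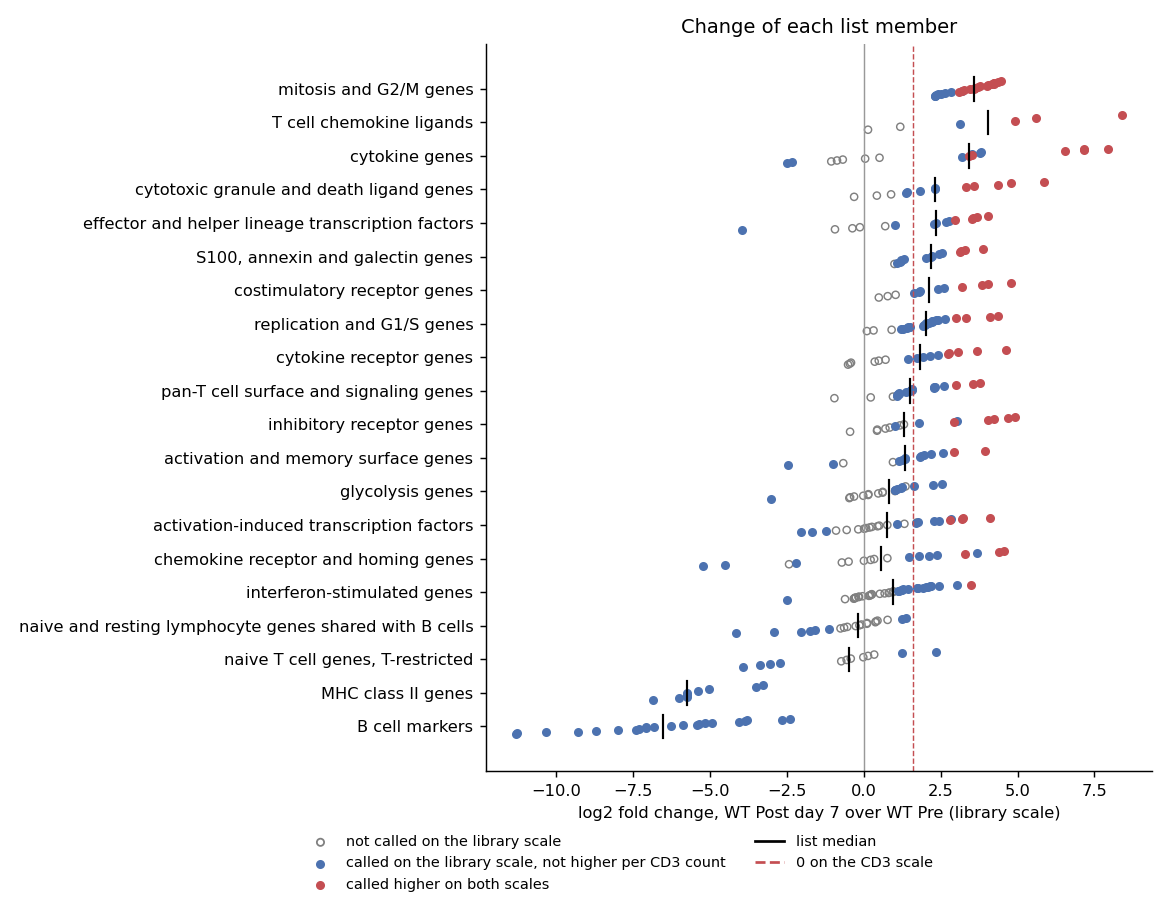
Log2 fold change (WT Post over WT Pre, library scale) of each tested member of 20 lists, with a bar at the list median. Open points were not called, blue points were called on the library scale without a rise per CD3 count, red points were called higher on both scales, and the dashed line at 1.61 marks a value of 0 on the CD3 scale. The mitosis list lies wholly to the right of the dashed line and the B cell and MHC class II lists wholly to the left of 0.

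Cytokine genes held both steep rises and clear falls. Of 17 tested, 10 were higher and 2 lower on the library scale, where 12.6% and 8.38% of all genes were. Another count, per CD3, gave 6 higher (1.35% of all genes were) and 4 lower (52.5% were). Ifng, which encodes interferon gamma, had 0.265, 1.04 and 0.367 normalized CPM in WT Pre and 88.3, 70.1 and 83.1 normalized CPM in WT Post. The log2 fold change of Ifng was 7.15 ± 0.50 (adjusted p = 2.27e-06), and 5.54 ± 0.57 per CD3 count (adjusted p = 4.79e-05). Csf2, which encodes GM-CSF, had 0.371, 0.831 and 0 normalized CPM in WT Pre and 94.4, 29.9 and 52.3 normalized CPM in WT Post. Il2, the T cell growth factor, was at or below 2 counts in every WT Pre library and at 9.39, 4.81 and 2.86 normalized CPM in WT Post. Every WT Post library was above every WT Pre library for these 3 genes, while Il2 stayed at a low level. Ltb and Lta, the lymphotoxin chains that both T and B cells make, were the 2 cytokine genes called lower on the library scale. Ltb fell from 1542, 2253 and 2178 normalized CPM to 401, 305 and 351 normalized CPM, and its fall cannot be told apart from that of B cells. Tnf, with 13.5, 9.86 and 6.60 normalized CPM in WT Pre and 18.8, 12.6 and 11.2 normalized CPM in WT Post, was not called and the groups overlapped.

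T cell chemokine ligands rose in 4 of 6 cases on the library scale, where 12.6% of all genes did. They rose in 3 of 6 per CD3 count (Ccl1, Ccl3 and Ccl4), where 1.35% of all genes did. Ccl4, an inflammatory chemokine, had 6.10, 8.15 and 2.63 normalized CPM in WT Pre and 322, 200 and 306 normalized CPM in WT Post, a log2 fold change of 5.61 ± 0.42. Ccl5, another inflammatory chemokine, was already at 279, 282 and 441 normalized CPM in WT Pre and at 428, 257 and 415 normalized CPM in WT Post. It was not called on the library scale, its groups overlapped, and per CD3 count it was called lower.

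Of 13 tested cytotoxic granule and death ligand genes, 10 were higher (12.6% of all genes were) and none lower on the library scale. Their median log2 fold change was 2.30. Per CD3 count 5 were higher (Gzmb, Gzmc, Gzmk, Serpinb9 and Fasl) and 2 lower, where 1.35% and 52.5% of all genes were. Gzmb, the protease granzyme B, had 13.8, 19.5 and 29.6 normalized CPM in WT Pre and 377, 430 and 498 normalized CPM in WT Post. Gzmk, granzyme K, went from 1.70, 2.49 and 1.04 normalized CPM to 117, 98.8 and 87.1 normalized CPM. Serpinb9, an inhibitor that shields the cell from its own granzyme B, rose by 4.80 ± 0.41 on the log2 scale, and Fasl, the ligand of the death receptor Fas, by 3.32 ± 0.46. Prf1, which encodes the pore protein perforin, had 79.6, 83.0 and 83.8 normalized CPM in WT Pre and 166, 134 and 156 normalized CPM in WT Post. Although its groups did not overlap, Prf1 missed the fold limit (0.89 ± 0.22, adjusted p = 0.0113) and was −0.74 ± 0.20 per CD3 count. It passed both limits on log2(TPM + 1) (1.18), with no filter on low counts (1.05) and without WT Pre replicate 2 (1.00) or WT Post replicate 2 (1.01). The other settings did not call it, with 0.49 by upper-quartile scaling. Gzma, granzyme A, rose by 1.37 ± 0.31 on the library scale and was not called per CD3 count. The granzymes thus did not move together, and WT Pre also held CD8 T cells and NK markers, whose part in the WT Pre levels was not tested.

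**Figure D4:**
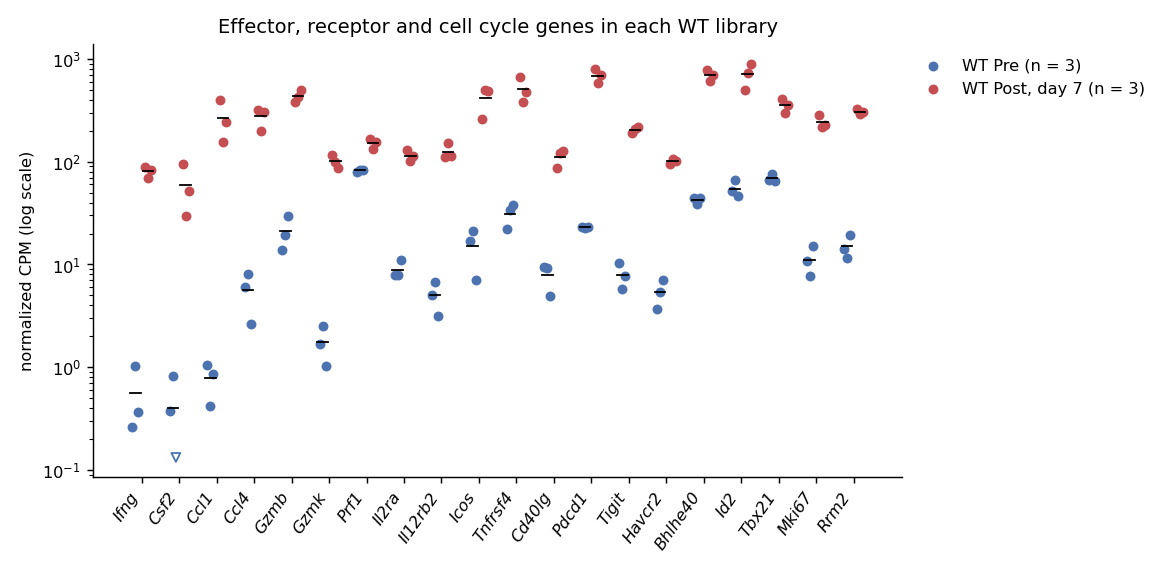
Normalized CPM (log axis) of 20 effector, receptor and cell cycle genes, with 1 point per library (blue WT Pre, red WT Post, n = 3 each) and a bar at the group mean; an open triangle marks a library at 0. Ifng, Csf2 and Ccl1 start near or below 1 in WT Pre, whereas Prf1 starts near 80, and WT Post lies above WT Pre for every gene shown.

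Many cytokine receptor genes rose. On the library scale 10 of 16 cytokine receptor genes were higher (12.6% of all genes were) and none lower, with a median of 1.83. Of the 16, 5 were higher per CD3 count (Il2ra, Il12rb2, Il18r1, Il18rap and Il1rl1) and 4 lower. The shares over all genes were 1.35% and 52.5%. Il12rb2, the inducible chain of the IL-12 receptor, had 5.09, 6.80 and 3.12 normalized CPM in WT Pre and 110, 151 and 114 normalized CPM in WT Post. Il2ra, the high-affinity IL-2 receptor chain CD25, rose from 7.85, 7.94 and 11.01 normalized CPM to 129, 102 and 113 normalized CPM. Il2rb, its partner chain, rose on the library scale by 2.42 ± 0.22 and was not called per CD3 count under the fold limit (0.78 ± 0.15, adjusted p = 0.00197), though it was when scaled to the T cell receptor constant genes (1.15). Il1rl1, the receptor for IL-33, is listed with them although it is better known from type 2 and regulatory T cells.

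Of 12 costimulatory receptor genes, 9 were higher (12.6% of all genes were) and none lower on the library scale, with a median log2 fold change of 2.11. Icos, a CD28 family member, had 17.02, 21.3 and 7.03 normalized CPM in WT Pre and 260, 497 and 491 normalized CPM in WT Post. Tnfrsf4, which encodes OX40, had 22.2, 34.0 and 37.7 normalized CPM in WT Pre and 660, 384 and 481 normalized CPM in WT Post. Both, with Cd40lg and Cd226, were higher per CD3 count as well (1.35% of all genes were), and 1 of the 12 was lower (52.5% were). Cd40lg, the signal that CD4 T cells give to B cells and dendritic cells, rose by 3.83 ± 0.34 on the library scale and by 2.20 ± 0.42 per CD3 count. The CD3 counts of WT Pre included CD8 T cells. Their part in the rise per CD3 count of genes used more by CD4 than CD8 T cells was not tested.

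Inhibitory receptors rose beside them. On the library scale 8 of 15 were higher (12.6% of all genes were) and none lower, with a median of 1.30. The 5 that were higher per CD3 count were Pdcd1, Tigit, Havcr2, Ctla4 and Lag3, the receptors PD-1, TIGIT, TIM-3, CTLA-4 and LAG-3. Of the 15, 3 were lower per CD3 count. The shares over all genes on that scale were 1.35% higher and 52.5% lower. Pdcd1 had 23.3, 22.6 and 23.1 normalized CPM in WT Pre and 790, 577 and 694 normalized CPM in WT Post. Pdcd1 rose by 4.90 ± 0.25 log2 units (adjusted p = 4.05e-07), and by 3.26 ± 0.20 per CD3 count (adjusted p = 2.86e-06). Tigit rose by 4.69 ± 0.29, Havcr2 by 4.23 ± 0.32, Ctla4 by 4.03 ± 0.36 and Lag3 by 2.92 ± 0.27 on the library scale. Tox, a transcription factor linked to lasting T cell stimulation, rose by 2.45 ± 0.30 on the library scale and was not called per CD3 count under the fold limit (0.84 ± 0.30), though it was when scaled to the T cell receptor constant genes (1.21).

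Activation and memory surface genes were higher in 11 of 15 cases and lower in 2, with a median of 1.34. Over all genes, 12.6% were higher and 8.38% lower. Of the 15, 2 were higher and 3 lower per CD3 count, where 1.35% and 52.5% of all genes were. Itgb1, the integrin chain CD29, had 36.8, 65.0 and 45.6 normalized CPM in WT Pre and 522, 815 and 920 normalized CPM in WT Post, and with Cd69 it was higher on both scales. Cd44, the usual surface marker of antigen-experienced T cells, had 54.5, 68.1 and 67.1 normalized CPM in WT Pre and 148, 148 and 181 normalized CPM in WT Post. Its log2 fold change of 1.33 ± 0.23 (adjusted p = 0.00144) was near the shift of the scales, and per CD3 count it was −0.27 ± 0.22 (adjusted p = 0.287). Itgae, the chain CD103, and Cd38, which B cells also carry, were the 2 genes lower on the library scale. The Itgae levels of the groups overlapped.

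Homing receptors changed in both directions. Of 18 chemokine receptor and homing genes, 8 were higher and 3 lower on the library scale, where 12.6% and 8.38% of all genes were. Their median log2 fold change was 0.55. Of the 18, 3 were higher (1.35% of all genes were) and 9 lower (52.5% were) per CD3 count, with a median of −1.06. Cxcr6, which marks T cells of liver and inflamed tissue, had 34.4, 61.4 and 26.6 normalized CPM in WT Pre and 814, 843 and 937 normalized CPM in WT Post. Cxcr6, Ccr2 and Gpr15 were also higher per CD3 count, by 2.78 ± 0.33, 1.70 ± 0.35 and 3.02 ± 1.01. The call of Gpr15 per CD3 count was lost without WT Pre replicate 2, WT Post replicate 1 or WT Post replicate 3 (adjusted p from 0.0524 to 0.0839). Gpr15, a receptor for homing to the large intestine, was at 0, 1.09 and 2.26 normalized CPM in WT Pre and at 35.3, 17.6 and 25.6 normalized CPM in WT Post. Cxcr3, a receptor of T helper 1 cells, rose on the library scale by 2.38 ± 0.23 and was not called per CD3 count. The 3 genes lower on the library scale were Cxcr5, Ccr6 and S1pr5. Cxcr5 and Ccr6 are carried by most B cells, whose markers were higher in every WT Pre library. S1pr5 is known from NK cells. Summed NK cell markers ranged from 64.7 to 119.5 CPM in WT Pre and from 39.9 to 74.0 CPM in WT Post, so the sums overlapped. Taken singly, 4 of 8 NK cell markers were called lower and none higher, with a median log2 fold change of −1.83. The part of either cell type in these falls was not tested.

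Effector and helper lineage transcription factors were higher in 10 of 15 cases and lower in 1, with a median of 2.36. Over all genes, 12.6% were higher and 8.38% lower. Of the 15, 5 were higher and 4 lower per CD3 count, where 1.35% and 52.5% of all genes were. Bhlhe40, which supports cytokine production in T helper cells, had 44.2, 38.9 and 44.4 normalized CPM in WT Pre and 780, 606 and 698 normalized CPM in WT Post. Id2, an inhibitor of E proteins, rose from 52.2, 66.2 and 45.9 normalized CPM to 497, 723 and 898 normalized CPM. Both, with Rora, Ahr and Stat4, were higher per CD3 count. Tbx21, which encodes the T helper 1 factor T-bet, rose from 66.9, 75.1 and 65.2 normalized CPM to 408, 298 and 359 normalized CPM. The log2 fold change of Tbx21 was 2.36 ± 0.23 on the library scale and 0.72 ± 0.20 per CD3 count, under the fold limit, which it passed when scaled to the T cell receptor constant genes (1.09). Eomes was not called, with 18.7, 15.1 and 2.51 normalized CPM in WT Pre and 25.5, 11.9 and 21.4 normalized CPM in WT Post. T-bet thus rose while Eomes overlapped between the groups.

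Activation-induced transcription factors were higher in 10 of 25 cases and lower in 3 (Irf8, Jun and Jund), with a median log2 fold change of 0.76. Over all genes, 12.6% were higher and 8.38% lower. Of the 25, 4 were higher and 10 lower per CD3 count, where 1.35% and 52.5% of all genes were. Hif1a, the oxygen and metabolism sensor, had 13.6, 25.9 and 6.73 normalized CPM in WT Pre and 235, 293 and 266 normalized CPM in WT Post. Batf, an AP-1 factor of activated T cells, rose from 30.5, 36.5 and 46.1 normalized CPM to 416, 296 and 344 normalized CPM. Hif1a, Batf, Egr2 and Tox2 were higher per CD3 count, Tox2 with an adjusted p = 0.0499. Irf4 and Myc, both turned on early after T cell receptor signals, were not called on the library scale. Irf4 had 28.9, 39.8 and 21.3 normalized CPM in WT Pre and 36.1, 23.5 and 35.1 normalized CPM in WT Post. Myc had 53.5, 71.0 and 109 normalized CPM in WT Pre and 103, 77.4 and 99.5 normalized CPM in WT Post. Both overlapped between the groups, and both are also used by B cells.

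Naive-state genes were divided by whether B cells are known to use them. Of 20 naive and resting lymphocyte genes shared with B cells, 2 were higher and 6 lower on the library scale. Of all genes, 12.6% were higher and 8.38% lower. In the list, 17 were lower per CD3 count (52.5% of all genes were). Ccr7 fell from 587, 881 and 653 normalized CPM to 43.7, 34.8 and 39.5 normalized CPM, a log2 fold change of −4.17 ± 0.26. The groups stood far apart, with no overlap. Bach2, a repressor that keeps lymphocytes resting, fell by 1.75 ± 0.45 on the log2 scale, a call that was lost without WT Pre replicate 1, WT Pre replicate 2 or WT Post replicate 3 (adjusted p from 0.0554 to 0.0677). S1pr1, the receptor for leaving lymphoid organs, had 300.25, 495 and 235 normalized CPM in WT Pre and 357, 363 and 385 normalized CPM in WT Post, and overlapped. The falls of Ccr7 and Bach2 can come from B cells, which use both genes.

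The 12 T-restricted naive genes do not have that source among mature B cells, as far as their usual use is known. On the library scale 4 fell (Dapl1, Igfbp4, Atp1b1 and Tdrp) and 2 rose (Il7r and Satb1), where 8.38% of all genes fell and 12.6% rose. The median log2 fold change was −0.49, against −0.17 over all genes. Per CD3 count 10 were lower (52.5% of all genes were) and none higher. Igfbp4 had 239, 331 and 334 normalized CPM in WT Pre and 24.9, 42.4 and 19.96 normalized CPM in WT Post, a log2 fold change of −3.37 ± 0.32 (adjusted p = 1.86e-05). Dapl1 fell from 20.6, 28.2 and 37.9 normalized CPM to 3.39, 0.623 and 1.57 normalized CPM. In both genes the groups stood well apart. Since WT Post held more CD3 counts per library, these falls are larger per CD3 count, at −4.92 ± 0.38 for Igfbp4 and −5.62 ± 0.58 for Dapl1. The WT Pre libraries also held more CD8 counts, and these genes are used by naive CD8 as well as CD4 T cells.

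Tcf7 and Lef1, the paired TCF/LEF factors of naive and memory T cells, were not called on the library scale. Tcf7, which encodes TCF-1, had 178, 178 and 123 normalized CPM in WT Pre and 150, 160 and 165 normalized CPM in WT Post, a log2 fold change of −0.02 ± 0.23 (adjusted p = 0.966). Per CD3 count it was called lower, at −1.65 ± 0.27 (adjusted p = 0.000816). Lef1 had 143, 148 and 146 normalized CPM in WT Pre and 86.0, 112 and 128 normalized CPM in WT Post, with −0.42 ± 0.23 on the library scale and −2.03 ± 0.26 per CD3 count. Every WT Post library was below every WT Pre library for Lef1, whereas the Tcf7 groups overlapped. Whether Tcf7 changed thus depended on the scale. Il7r, the IL-7 receptor chain, rose on the library scale from 44.6, 46.5 and 18.0 normalized CPM to 97.8, 231 and 227 normalized CPM and was not called per CD3 count (0.73 ± 0.49, adjusted p = 0.212).

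**Figure D5:**
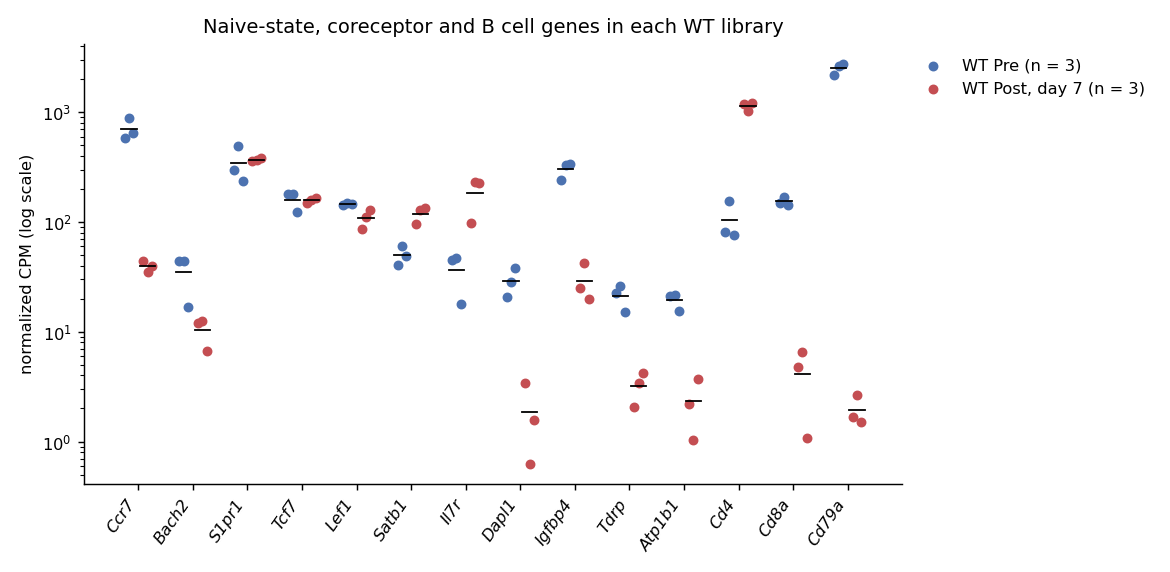
Normalized CPM (log axis) of naive-state, coreceptor and B cell genes, with 1 point per library (blue WT Pre, red WT Post, n = 3 each) and a bar at the group mean. Ccr7, Dapl1 and Igfbp4 are lower in every WT Post library, Tcf7 and S1pr1 overlap, Il7r and Cd4 are higher, and Cd79a falls below 3 normalized CPM.

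The S100, annexin and galectin genes, which bind calcium, membranes or sugars in motile effector cells, were higher in 14 of 15 cases (12.6% of all genes were). Their median log2 fold change was 2.19. Lgals1, which encodes galectin-1, had 182, 174 and 263 normalized CPM in WT Pre and 2341, 1438 and 1803 normalized CPM in WT Post. S100a4 rose from 19.9, 25.4 and 40.9 normalized CPM to 504, 348 and 414 normalized CPM. Both, with S100a6 and Ahnak, were higher per CD3 count. These genes are also used by myeloid cells. Summed monocyte and macrophage markers ranged from 3790 to 4951 CPM in WT Pre and from 1743 to 2919 CPM in WT Post, whereas neutrophil markers ranged from 710 to 1137 CPM and from 901 to 1964 CPM. The part of myeloid cells in these rises was not tested.

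Metabolic lists moved less than the proliferation lists, with glycolysis genes the most often higher among them (12.6% of all genes were higher). Of 20 glycolysis genes, 8 were higher and 1 (Eno3) lower, with a median log2 fold change of 0.81, and per CD3 count none was higher and 8 were lower (52.5% of all genes were). Ldha, lactate dehydrogenase A, had 1006, 1235 and 1280 normalized CPM in WT Pre and 3451, 2189 and 2592 normalized CPM in WT Post. Its log2 fold change was 1.23 ± 0.24 (adjusted p = 0.00311) on the library scale and −0.41 ± 0.13 per CD3 count. Among 21 genes of the TCA cycle and respiratory chain, 5 were higher, led by Idh3a at 2.15 ± 0.25, and none was lower. One-carbon and nucleotide synthesis genes were higher in 5 of 20 cases (with Mthfd2 among them at 1.66 ± 0.27) and cholesterol and fatty acid synthesis genes in 2 of 20, with 1 lower. No amino acid transporter of 8 was higher and 1 (Slc43a1) was lower. Slc7a5, the large neutral amino acid transporter of activated T cells, had 41.0, 49.9 and 63.3 normalized CPM in WT Pre and 58.1, 55.9 and 73.7 normalized CPM in WT Post, and overlapped. Like the glycolysis genes, none of the members of these 4 lists was higher per CD3 count.

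Interferon-stimulated genes were higher in 16 of 37 cases and lower in 1 (Oasl1), with a median log2 fold change of 0.94. Over all genes, 12.6% were higher and 8.38% lower. Of the 37, 1 was higher and 15 lower per CD3 count, where 1.35% and 52.5% of all genes were. Gbp7, a guanylate-binding protein induced by interferon gamma, had 19.7, 23.6 and 16.02 normalized CPM in WT Pre and 223, 225 and 214 normalized CPM in WT Post. It was the member of the list that was higher per CD3 count, by 1.85 ± 0.28 (adjusted p = 0.000492). Gbp2 rose by 2.10 ± 0.26 on the library scale. The windows of Gbp2 at chr3:142620413-142620712 and Gbp7 at chr3:142530086-142530385, both on the plus strand, are printed from the same RefSeq table, because they carry the letters of the interferon-stimulated response element, GAAA, any 2 bases and GAAA again. Capitals mark it, here on the other strand as TTTC, any 2 bases and TTTC.
Gbp2: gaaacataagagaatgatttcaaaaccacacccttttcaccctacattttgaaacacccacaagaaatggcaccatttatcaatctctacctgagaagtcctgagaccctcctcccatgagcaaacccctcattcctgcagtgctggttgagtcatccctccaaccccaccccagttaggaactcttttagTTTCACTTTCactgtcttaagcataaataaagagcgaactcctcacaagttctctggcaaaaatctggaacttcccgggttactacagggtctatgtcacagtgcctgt
Gbp7: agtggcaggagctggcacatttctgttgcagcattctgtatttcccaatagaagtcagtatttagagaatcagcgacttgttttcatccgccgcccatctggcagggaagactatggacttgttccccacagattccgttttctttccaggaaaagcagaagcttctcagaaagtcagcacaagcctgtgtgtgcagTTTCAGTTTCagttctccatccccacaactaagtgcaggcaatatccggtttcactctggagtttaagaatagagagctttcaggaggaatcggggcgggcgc

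The motif was present in 8 of 12 windows of interferon-stimulated genes called higher (66.7%) and in 10 of 16 windows of the other members (62.5%), against 3.49% of all 27025 windows. Members that rose and members that did not thus held it in like shares. Among 14 MHC class I and peptide loading genes 3 were higher (Erap1, Nlrc5 and Psme2) and none lower on the library scale, where 12.6% and 8.38% of all genes were. Their median was 0.37 (−0.03 by upper-quartile scaling), and 10 were lower per CD3 count (52.5% of all genes were). Erap1, the peptidase that trims peptides for class I, had the highest log2 fold change of the list, at 2.15, and Tapbp the lowest, at −0.06. Unlike class II, class I is made by nearly all cells.

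Regulators of T cell receptor signals were higher in 11 of 20 cases (12.6% of all genes were) and lower in none, with a median log2 fold change of 1.35. Cish, an inhibitor induced by cytokine receptors, was the 1 member higher per CD3 count (1.47 ± 0.29), and 5 of the 20 were lower. The shares over all genes on that scale were 1.35% higher and 52.5% lower. BCL2 family genes were higher in 5 of 15 tested cases and lower in 1, where 12.6% and 8.38% of all genes were. None of the 15 was higher per CD3 count and 6 were lower (52.5% of all genes were). Bcl2l11, which encodes the killer protein BIM, rose from 25.1, 24.3 and 22.1 normalized CPM to 68.9, 74.0 and 73.6 normalized CPM. Bcl2, the survival protein, narrowly missed the fold limit (0.99 ± 0.27, adjusted p = 0.0188). It passed both limits by DESeq2 (1.03), on log2(TPM + 1) (1.03), with no filter on low counts (1.13), with the replicate block (1.02) and without WT Pre replicate 2, WT Post replicate 1 or WT Post replicate 2 (1.01 to 1.31). Bmf, a killer protein, was the gene lower on the library scale. Death receptor and caspase genes were higher in 7 of 16 cases (12.6% of all genes were) and lower in none. Casp1 was among the 2 higher per CD3 count, where 5 of the 16 were lower (52.5% of all genes were). Of 8 GIMAP genes, lymphocyte GTPases tied to survival, 4 were higher (12.6% of all genes were) and none lower on the library scale. None of the 8 was higher per CD3 count and 1 was lower.

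Regulatory T cell genes gave 1 higher member (Nrp1) and 1 lower member (Gpr83) of 6. That is 16.7% each way, near the 12.6% higher and 8.38% lower of all genes. Foxp3, the lineage factor, was at 22.6, 26.2 and 11.98 normalized CPM in WT Pre and at 18.9, 24.6 and 12.1 normalized CPM in WT Post, so the groups overlapped. Nrp1 rose by 3.84 ± 0.38 on the library scale and by 2.21 ± 0.44 per CD3 count. Of the 5 E protein and Id genes, Id3 and Tcf4 were lower (8.38% of all genes were) and none was higher. Id3 fell from 243, 356 and 268 normalized CPM to 80.9, 54.7 and 67.4 normalized CPM while Id2 rose, and both Id3 and Tcf4 are used by B cells.

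Read by what B cells in the WT Pre libraries can give, the calls fall into 4 sets. The 244 genes higher on both scales cannot owe their rise to them. Of the 244, 76 (31.1%) are members of the lists above, against 3.33% of all genes tested. The lists were chosen with earlier results of these data known. Cd4 is among the 244, and the part of CD8 T cells of WT Pre in such rises was not tested. The 2031 genes higher on the library scale alone were not called per CD3 count, so their rise was not separated from that of the CD3 genes. The 1512 lower genes can come from lost B cells or other non-T cells wherever those cells use the gene. Dapl1, Igfbp4, Atp1b1 and Tdrp are not usually used by B cells, nor are Cd8a and Cd8b1, which were themselves the only measure of CD8 content. The 7948 genes lower per CD3 count alone, Tcf7 and Lef1 among them, depend on whether their WT Pre counts came from T cells, which bulk libraries do not show.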

How the data were processed

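RNA from 6 WT libraries, 3 Pre and 3 Post, was compared. Per the labels and the methods, the authors made cDNA with SMARTseq HT and libraries with Nextera XT, sequenced paired ends and ran pseudoalignment with kallisto 0.46.2, with mm9 named as the genome build. The deposited estimated count values are per transcript and carry no normalization. The TPM values that the authors deposited are kallisto's, scaled to transcript length and library. Full-length cDNA from little RNA is amplified before counting, so rare transcripts vary between libraries.

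Of 117497 transcripts, 116428 (99.1%) matched GENCODE M21 by identifier without version, and 1069 were left out. They held 0.282% to 0.343% of the counts of these libraries. Estimated counts were summed over 35907 genes and rounded. With R 4.3.3 and edgeR 4.0.16, genes were filtered by filterByExpr, normalized by TMM and tested with the quasi-likelihood test, with Benjamini-Hochberg adjustment over all 18033 genes. The same model was refitted with the summed count of Cd3d, Cd3e and Cd3g as the library size. On either scale, calls needed an adjusted p below 0.05 and a fold limit of 1 log2 unit in either direction. Errors printed after ± are standard errors of log2 fold changes. Ratios of TPM were tested by exact permutation with scipy 1.17.1.

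Alternatives were upper-quartile scaling, library totals, DESeq2 1.42.0, voom and limma 3.58.1, limma on log2(TPM + 1), no filter, all 12 libraries, a replicate block, other T cell genes as the scale, and leaving out each library. Counts were also simulated for the 18033 genes, with far fewer genes changed than were called here. The test recovered 26% of genes changed by 1.5 log2 units and 54% of those changed by 2. Because the number of changed genes differed, these shares do not give the power of the real comparison. Replicates were not copies of each other: Pearson's r of log2 CPM ranged from 0.877 to 0.950 within groups and from 0.756 to 0.864 between them. Same-numbered Pre and Post libraries were not treated as pairs.

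The 44 gene lists and the naming rule were chosen with earlier results of these data known. Named genes are 55 key genes, up to 4 members per list with the smallest adjusted p, up to 2 called members against the majority, the 8 largest rises and falls with a mean of at least 10 CPM in the higher group and no overlap (predicted genes, pseudogenes and receptor segments passed over), and members of counts of 5 or fewer. Some genes that this rule names are not reported here. Btk was named as the end of a range, after its value was seen. Il17a, Il22, Il13, Gzmf, Bok, Gp9, Ccl21a and Madcam1 did not pass the filter, and Ahsp was not matched. Promoter windows are from RefSeq, with 1 window per gene symbol.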

Additional observations from a re-analysis of the deposited data

How the results depend on the processing

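Counts of calls moved with scaling and tool. Upper-quartile scaling moved the median gene by −0.39 and gave 1259 higher and 2320 lower genes, while log2(TPM + 1) moved it by 0.34. DESeq2 gave 2849 lower genes. Leaving out 1 library gave 1654 to 2612 higher and 989 to 1784 lower genes, with the lowest of both without WT Post replicate 3. Per CD3 count, leaving out 1 library gave 172 to 254 higher and 6396 to 10345 lower genes. Scaled to the T cell receptor constant genes, 375 genes were higher, and scaled to Thy1, Cd2, Cd5, Cd6 and Lck, 471 were higher and 5651 lower.

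By upper-quartile scaling, the higher members fell from 17 to 10 for pan-T cell genes, from 14 to 9 for S100, annexin and galectin genes, from 16 to 10 for interferon-stimulated genes, from 11 to 7 for activation and memory surface genes, from 8 to 3 for glycolysis, from 5 to 2 for the TCA cycle and respiratory chain and from 5 to 3 for one-carbon and nucleotide synthesis. On log2(TPM + 1), GIMAP genes rose from 4 to 7 higher members. Mcm5 (0.88), Gzma (0.97), Cd44 (0.93) and Ldha (0.83) dropped under the fold limit on the library scale with upper quartiles.

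Tcf7 on the library scale changed sign by DESeq2 (0.022), on log2(TPM + 1) (0.34), with no filter on low counts (0.13), with the replicate block (0.0036) and without single libraries (from −0.16 to 0.16), and was called under none of these. Scaled to Thy1, Cd2, Cd5, Cd6 and Lck in place of CD3, Mcm5 (0.15), Cd44 (0.26) and Ldha (0.11) changed sign, as did Cd44 scaled to the T cell receptor constant genes (0.084). None of these was called, and the cause was not tested.

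Same-numbered libraries did not deviate together, with correlations of −0.0566, −0.226 and −0.157. The replicate block gave 2141 higher and 1208 lower genes on the library scale, and 202 higher and 6759 lower genes per CD3 count, of which 191 were among the 244. With 3 libraries a group, genes changed by 1.5 or by 2 log2 units were often missed in simulated counts, so a gene not called is not shown to be level.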
